A study of Mus musculus with 10 samples.

Results

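Integrin subunits and the cytoplasmic adaptors that bind them were examined in primary microglia, the brain's own macrophages, in culture. The genes were chosen by name: all protein-coding genes with a GENCODE M21 symbol of an integrin alpha or beta subunit, plus kindlins (Fermt1, Fermt2, Fermt3), talins (Tln1, Tln2), vinculin (Vcl), integrin-linked kinase (Ilk), parvins (Parva, Parvg), paxillin (Pxn) and the counter-receptors Icam1, Icam2 and Vcam1. This gave 39 genes of the 55471 in the tables, made up of 18 alpha subunits, 8 beta subunits, 10 adaptors and 3 counter-receptors. The cells came from mice of wild-type genotype (WT) and were kept in DMEM with 10% FBS and antibiotics. They had received gapmers, antisense oligonucleotides that direct RNase H to the RNA they pair with. The control group, 5 libraries, received a control gapmer, and the other 5 libraries, the knockdown-labelled group, received gapmers against the long noncoding RNA 3222401L13Rik. The labels give no age, dose or time, and do not say whether the libraries of a group came from separate cultures or animals, so the p-values measure the spread between these libraries.

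Integrins are adhesion receptors made of 1 alpha and 1 beta chain, which together decide the ligand. Talins and kindlins bind the beta chain's tail and switch the receptor from a bent to an extended form, and vinculin, paxillin and the complex of Ilk with a parvin tie the bound receptor to actin. In microglia and other macrophages the Itgb2 integrins, among them the complement receptor made of Itgam and Itgb2, serve adhesion to Icam1-bearing cells and phagocytosis, while the Itgav integrins activate latent Tgf-beta and bind apoptotic cells through Mfge8.

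The label check did not separate the groups. 3222401L13Rik had 28 to 34 reads in the control libraries and 22 to 38 in the knockdown-labelled ones, a log2 fold change of -0.17 (SE 0.23, edgeR's quasi-likelihood test, Benjamini-Hochberg adjusted p = 0.541). Of its reads 48.3% were predicted from background, as defined next. Totals ran from 4321316 to 5639040 reads in the control libraries and from 5593627 to 6636082 in the knockdown-labelled ones. Reads on 1093 olfactory receptor genes, which serve smell in the nose and are used here as a gauge of reads that do not depend on a gene's expression, had a density of 0.603 ± 0.148 (SD, n = 5) per kilobase of exon and 1000000 reads under the control gapmer and of 0.259 ± 0.0676 (SD, n = 5) in the knockdown-labelled group. The control density was 2.33 times as high (exact permutation test, two-sided p = 0.00794, which is the lowest value 5 against 5 allows). For every gene this density times its exon length gave the number of reads expected from background alone. That number as a percentage of the gene's reads is called its background share. Microglial markers were present, with summed levels of 3339 to 3971 CPM (counts per 1000000 reads, TMM-scaled) in the control libraries. They summed to 4016 to 4620 CPM in the knockdown-labelled ones, where 9 of the 10 markers rose. Their median background share was 0.427%, and among all tested genes with a share under 5%, 75.6% rose. Of the 10 microglial markers, Tmem119 (2.84 CPM in the controls) and P2ry12 (11.4 CPM) were low. In bulk RNA, fewer cells of a type and less RNA per cell cannot be told apart.

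Levels per kilobase of exon in the control libraries put 19 of the 39 genes clearly apart from the rest. The beta subunit Itgb2, which pairs with the leukocyte alpha chains, and Tln1 stood highest at 207 ± 10.4 and 197 ± 11.5 CPM per kilobase (SD, n = 5), and their ranges overlapped. Itgb1, the beta chain of most matrix receptors, followed at 137 ± 13.6. The haematopoietic kindlin Fermt3 (59.4 ± 2.79), Itgb5 (56.4 ± 4.24) and the haematopoietic parvin Parvg (48.3 ± 3.59) came next, and neighbours in this order overlapped. Itga6 (37.1 ± 2.80) and Itgax (36.0 ± 1.97) overlapped with each other and lay above Itgam (24.1 ± 3.50) when reads were divided by all exon bases. Divided by the exon bases that no other gene covers, Itgam stood above Itgax. Itgam, Itga5 (20.8 ± 0.756), Itgav (18.1 ± 1.44) and Icam1 (16.7 ± 1.24) each overlapped with the next. Pxn, Itgb3, Vcl, Itga4, Tln2, Itgal and Itga9 filled the range from 11.6 down to 4.53 CPM per kilobase. The remaining genes began at Itgae with 2.55 ± 0.529 and ended at Itga1 with 0.571 ± 0.0966 and Ilk with 0.220 ± 0.0939, and from Itgae down to Itga1 every neighbour overlapped with the next. The olfactory receptor genes as a group had 0.57 ± 0.115 CPM per kilobase under the control gapmer and 0.279 ± 0.0641 in the other group, so the mean of Itga1 stood at that level in both groups (0.571 and 0.304).

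**Figure D1:**
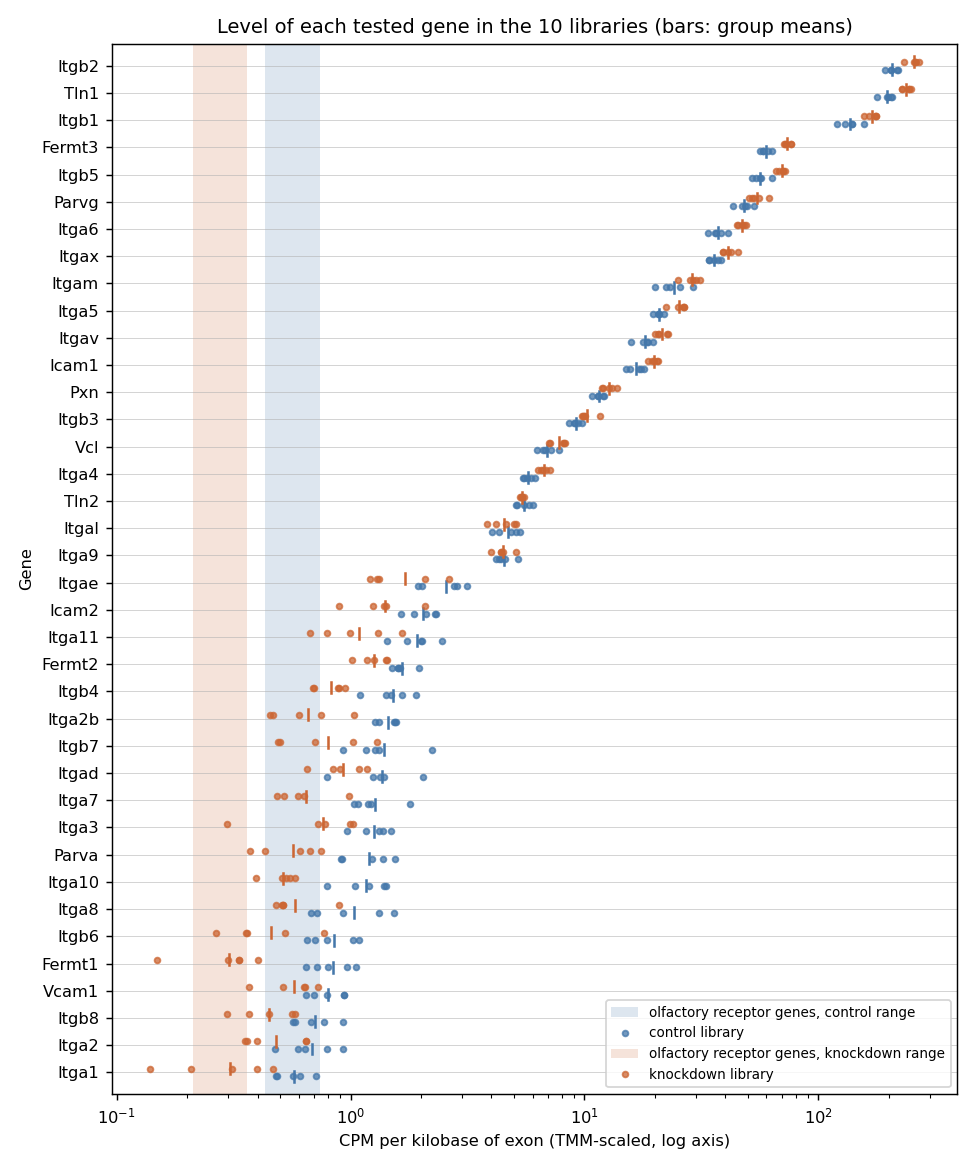
Level of each of the 38 tested genes in CPM per kilobase of exon on a log axis, with 1 point per library (5 control, 5 knockdown-labelled), short bars at the group means and shaded bands over the range of the olfactory receptor genes in each group. Itgb2 and Tln1 stand near 200 CPM per kilobase, and from Itgae (2.55 in the controls) down the levels come close to the bands or inside them.

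Of the 38 genes with enough reads for the test, 14 rose, 14 fell and 10 were not called in the knockdown-labelled libraries (edgeR's quasi-likelihood test over 19263 genes, Benjamini-Hochberg adjusted p under 0.05). Over all tested genes 22.9% rose and 31.3% fell, so calls in both directions were common throughout the tables. The median log2 fold change was -0.23 over the 38 genes and -0.10 over all genes. All knockdown-labelled libraries lay above all control libraries for 11 of the 38 genes, against 12.6% of all tested genes, and below them for 8, against 14.2%. The 14 genes that rose had control means of 54.1 to 1927 CPM and background shares of 0.179% to 6.68%. The 14 that fell had control means of 3.84 to 12.2 CPM and background shares of 19.8% to 96.5%.

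These counts moved with the scaling. With library totals in place of TMM, 6 genes rose and 22 fell, against 3.94% and 40.9% of all tested genes. With upper-quartile scaling 7 rose and 19 fell, against 8.75% and 37.4%. The median over all genes then shifted from -0.10 to -0.30 and -0.24. When the scaling rested only on genes with a background share under 5%, an added setting, 1 of the 38 rose and 22 fell, against 1.67% and 44.5% of all tested genes, whose median was -0.33. With upper-quartile scaling Itgam, Itgax, Itgav, Itga4, Itgb3, Parvg and Icam1 lost their calls, with log2 fold changes of 0.02 to 0.11. Adding the background density as a covariate left 0 of 38 called, with 6 at an unadjusted p under 0.05 in edgeR. That fit called few genes at all (0.0208% rose and 0.0831% fell). The density ran from 0.426 to 0.821 in the control libraries and from 0.19 to 0.345 in the knockdown-labelled ones. Without overlap, the fit can hardly tell density and group apart. Within lane 7 (replicates 1 to 3) 13 rose and 14 fell, against 20.7% and 28.9% of all genes. Within lane 8 (replicates 4 and 5) 0 were called, with 9 at an unadjusted p under 0.05 in edgeR, against 0.328% of all genes risen and 0.749% fallen. The directions given next are those relative to TMM over all tested genes.

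**Figure D2:**
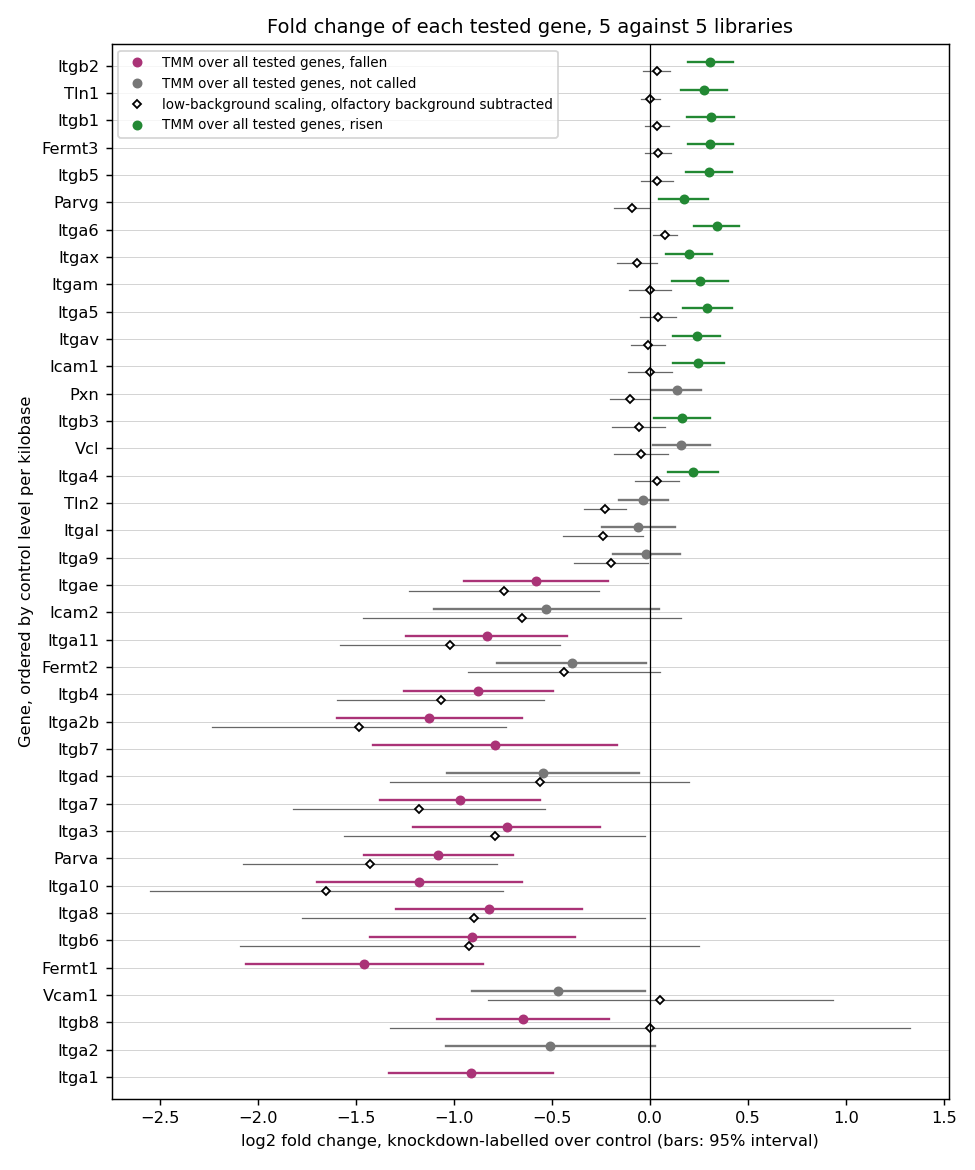
log2 fold change (knockdown-labelled over control, 5 against 5 libraries) of the 38 tested genes, ordered by control level per kilobase, with 95% intervals as bars. Filled circles are the TMM fit, coloured by call, and open diamonds the fit scaled on genes under a 5% background share after subtraction of the background reads; the 14 green circles lie right of 0, and the diamonds of the same genes lie near 0.

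The promoters of 4 genes are shown because the study's title names PU.1, a myeloid factor of the Ets family. Of the 4 genes 3 (Itgam, Itgav and Parvg) rose while Itga11 fell. Only windows that held the motif named next were shown, so its presence in all 4 is not a result. Each is the 250 bases before the gene's start in the RefSeq table for GRCm38.p6, 5′ to 3′ on the gene's strand, with GAGGAA, a core of the PU.1 site, or its reverse complement in capitals. The regions are chr7:128062390-128062639 for Itgam, chr2:83724147-83724396 for Itgav, chr15:84324470-84324719 for Parvg and chr9:62677605-62677854 for Itga11, all on the plus strand.
Itgam: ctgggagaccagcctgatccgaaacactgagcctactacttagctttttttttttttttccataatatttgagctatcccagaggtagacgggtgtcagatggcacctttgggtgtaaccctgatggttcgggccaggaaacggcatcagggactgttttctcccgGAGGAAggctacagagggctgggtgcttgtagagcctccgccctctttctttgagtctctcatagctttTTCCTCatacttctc
Itgav: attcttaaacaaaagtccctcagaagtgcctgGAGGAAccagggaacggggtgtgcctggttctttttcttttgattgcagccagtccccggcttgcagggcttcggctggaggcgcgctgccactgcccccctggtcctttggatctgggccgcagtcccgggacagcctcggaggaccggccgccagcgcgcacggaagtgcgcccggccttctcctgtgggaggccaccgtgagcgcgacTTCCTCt
Parvg: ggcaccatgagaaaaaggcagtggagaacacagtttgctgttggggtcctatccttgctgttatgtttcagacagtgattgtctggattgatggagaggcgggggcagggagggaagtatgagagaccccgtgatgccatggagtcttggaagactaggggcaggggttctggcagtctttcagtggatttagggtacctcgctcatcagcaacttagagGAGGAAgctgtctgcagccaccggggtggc
Itga11: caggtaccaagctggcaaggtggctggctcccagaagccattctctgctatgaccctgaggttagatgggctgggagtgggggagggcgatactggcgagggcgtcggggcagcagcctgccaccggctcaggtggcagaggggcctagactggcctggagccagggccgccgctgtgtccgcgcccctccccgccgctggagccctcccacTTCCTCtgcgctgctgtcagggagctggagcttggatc
The first match starts at -84 from the start of Itgam, at -218 from Itgav, at -30 from Parvg and, on the other strand, at -38 from Itga11. These starts are those of the RefSeq table. GENCODE M21 starts Parvg at 84324026, ahead of its window, and Itga11 at 62677826, inside its window. Of the 39 genes 26 were matched in the table, and 10 of them (38.5%) held GAGGAA on either strand, against 25.9% of 27025 genes with a window of the same length. The 10 were Itgam, Itgav, Itga5, Itgb1, Tln1 and Parvg, which rose, and Itga2b, Itga3, Itga11 and Itgb6, which fell. The motif was thus in 6 of the 11 matched genes that rose and 4 of the 10 matched genes that fell. The longer form AGAGGAAGT, which contains the core, was in Itgav and Itga11 and in 0.94% of all windows.

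Of the 4 beta subunits that rose Itgb2 had the highest level per kilobase. Its levels in control replicates 1 to 5 were 665, 586, 625, 626 and 659 CPM, and in the knockdown-labelled replicates 709, 801, 786, 822 and 794 CPM. The groups did not overlap, and the log2 fold change was 0.31 (SE 0.06, edgeR adjusted p = 2.21e-05). The gene (ENSMUSG00000000290) lies on GRCm38 chr10:77530252-77565708, plus strand. Itgb1 rose by 0.31 on the log2 scale, from 559 ± 55.6 to 693 ± 35.5 CPM (SD, n = 5 each), with 1 control library (641 CPM) just above the lowest knockdown-labelled one (640.1 CPM). Itgb5, a partner of Itgav, rose by 0.30 from 200.4 ± 15.1 to 247 ± 8.68 CPM with no overlap. Itgb3, another Itgav partner, had the smallest rise, 0.16 (SE 0.07, edgeR adjusted p = 0.0477), from 50.8 to 57.7 CPM in the control libraries to 57.9 to 68.6 CPM in the others, with no overlap. Its call was lost without control replicate 1, 2 or 3 (edgeR adjusted p = 0.0866, 0.0579 and 0.0641) or without knockdown-labelled replicate 2 (0.122).

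The other 4 beta subunits fell: Itgb6 (-0.91), which pairs with Itgav in epithelium, Itgb4 (-0.88), the hemidesmosome chain that pairs with Itga6, Itgb7 (-0.79), a lymphocyte chain that pairs with Itga4 and Itgae, and Itgb8 (-0.65), an activator of Tgf-beta. All were scarce. Itgb4 had 11.7, 13.3, 10.5, 9.95 and 7.68 CPM in the control libraries and 6.24, 4.82, 4.89, 6.19 and 6.64 CPM in the knockdown-labelled ones, without overlap. Itgb8 had 7.80 ± 1.67 and 4.97 ± 1.35 CPM, and 73% of its reads were predicted from background. Itgb7 had the lowest control mean of the 38 genes in CPM not divided by length, 3.84 ± 1.38, and the groups overlapped. Without control replicate 1 or knockdown-labelled replicate 2 or 3 it lost the call (edgeR adjusted p = 0.177, 0.0943 and 0.0891), as did Itgb8 without control replicate 3 or knockdown-labelled replicate 2 (0.0662 and 0.0576).

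Of the 18 alpha subunits 6 rose, 8 fell and 4 were not called. Itga6, a laminin receptor chain, had the largest rise of all 38 genes. It had 345, 303, 325, 329 and 371 CPM in the control libraries and 406, 424, 443, 411 and 436 CPM in the knockdown-labelled ones. No library overlapped, and the log2 fold change was 0.34 (SE 0.06, edgeR adjusted p = 6.08e-06). Itga5, the fibronectin receptor chain, rose by 0.29 (102 ± 3.73 to 125 ± 8.96 CPM), and Itgav, the chain of the RGD-binding receptors, by 0.24 (195 ± 15.4 to 229.6 ± 12.4 CPM). Itga4, which binds Vcam1 and fibronectin, rose by 0.22 (80.2 ± 4.12 to 93.5 ± 4.08 CPM). In these 3 genes the groups did not overlap.

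Of the 4 alpha chains of Itgb2, 2 rose and 2 were not called, and differences between the chains' fold changes were not tested. Itgam, the complement receptor chain also known as Cd11b, had 117, 100.4, 128, 112 and 147 CPM in the control libraries and 127, 151, 156, 142 and 146 CPM in the knockdown-labelled ones. Control replicates 3 and 5 reached into the range of the other group, and the log2 fold change was 0.25 (SE 0.07, edgeR adjusted p = 0.00287). Itgax, or Cd11c, rose by 0.20 from 173 ± 9.46 to 198 ± 12.4 CPM without overlap. Itgal, the Icam-binding chain of lymphocyte function-associated antigen, was not called (31.0 ± 3.57 and 29.8 ± 3.56 CPM, log2 fold change -0.06, 95% interval -0.24 to 0.13), and neither was Itgad (6.14 ± 2.02 and 4.19 ± 0.930 CPM, log2 fold change -0.55). Itgam, Itgax and Itgad lie beside each other on chromosome 7. Of the exon bases of Itgam 68.67% are also exons of Gm49368 on the same strand, a gene with 0 to 11 reads per library, so the level of Itgam depends on how reads shared by both genes were counted.

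The 8 alpha subunits that fell were Itga10 (-1.18), Itga2b (-1.13), Itga7 (-0.97), Itga1 (-0.91), Itga11 (-0.83), Itga8 (-0.82), Itga3 (-0.73) and Itgae (-0.58). Itga1, Itga10 and Itga11 are collagen receptor chains, Itga3 and Itga7 bind laminin, Itga2b is the platelet fibrinogen receptor chain and Itgae the chain that holds T cells in epithelium. Itga2b had 8.38, 8.52, 8.46, 7.19 and 6.96 CPM in the control libraries and 2.46, 3.27, 2.53, 5.66 and 4.09 CPM in the knockdown-labelled ones, with no overlap (SE 0.24, edgeR adjusted p = 9.82e-05). Itga10 had 6.19, 5.40, 7.36, 7.19 and 4.11 CPM against 2.65, 2.76, 2.87, 3.01 and 2.04 CPM, also without overlap, and 33.53% of its exon bases are shared with Gm42957 on the same strand. Among platelet markers fixed for comparison, Pf4 had means of 13.9 CPM in the controls and 18 CPM in the knockdown-labelled group and rose. Gp1ba (7.81 and 4.91 CPM) and Gp6 (6.14 and 2.06 CPM) fell, and Ppbp (1.71 and 0.579 CPM) and Gp9 (0.256 and 0.320 CPM) were not tested. The summed platelet markers ranged from 25.2 to 34.1 CPM and from 20.8 to 33.3 CPM, and their part in the Itga2b result was not tested. Itga9 (34.9 ± 3.09 and 34.3 ± 3.16 CPM, log2 fold change -0.02, 95% interval -0.19 to 0.15) and Itga2 (4.90 ± 1.26 and 3.43 ± 1.07 CPM, -0.51) were not called. Itga3 lost its call without knockdown-labelled replicate 3 (edgeR adjusted p = 0.0628).

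Of the 9 adaptors tested 3 rose, 2 fell and 4 were not called. Tln1 had 1944, 1741, 2012, 1920.3 and 2019 CPM in the control libraries and 2234, 2428, 2380.5, 2224 and 2396 CPM in the knockdown-labelled ones. The groups did not overlap, and the log2 fold change was 0.28 (SE 0.06, edgeR adjusted p = 0.000102). Fermt3 rose by 0.31, from 344 ± 16.1 to 425 ± 13.2 CPM, also without overlap, and Parvg by 0.17, from 149 ± 11.1 to 168 ± 13.2 CPM with overlapping groups. The call of Parvg was lost without knockdown-labelled replicate 5 (edgeR adjusted p = 0.0657).

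Fermt1, the epithelial kindlin, and Parva, the widely expressed parvin, fell. Fermt1 had 4.55, 6.03, 5.52, 3.69 and 4.11 CPM against 1.89, 1.90, 0.844, 2.30 and 1.70 CPM, the largest fall of the 38 genes (-1.46, SE 0.30, edgeR adjusted p = 9.31e-05). Parva had 9.29, 15.8, 14, 12.5 and 9.29 CPM against 7.56, 3.79, 4.39, 6.19 and 6.81 CPM (-1.08, SE 0.19, edgeR adjusted p = 8.47e-06). In both genes every knockdown-labelled library lay below every control library, and background predicted 74.6% and 48.1% of the reads. Fermt2, the kindlin of most adherent cells, did not overlap either (8.62 ± 0.906 and 6.54 ± 0.901 CPM) but was not called (-0.40, edgeR adjusted p = 0.0687).

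Tln2 (101 ± 7.51 and 99.0 ± 1.4 CPM), Vcl (56.8 ± 4.89 and 63.5 ± 4.89 CPM) and Pxn (94.8 ± 4.36 and 104 ± 6.59 CPM) were not called, with log2 fold changes of -0.03, 0.16 and 0.14. With DESeq2's size factors Vcl (0.23) and Pxn (0.21) rose, while library totals (-0.05 and -0.07) and scaling on genes under a 5% share (-0.09 and -0.11) turned the sign of both. Ilk was not tested, with 0 to 6 reads per library. Of its exon bases 89.69% are covered on the opposite strand by Rrp8 (90 to 131 reads) and Taf10 (72 to 111 reads), and how reads in such stretches were counted is not given in the sources used here. Icam1, which binds the Itgb2 integrins, rose by 0.25 (SE 0.07, edgeR adjusted p = 0.00153). It had 74.8, 65.7, 68.5, 76.1 and 78.4 CPM in the control libraries and 89.0, 86.7, 89.8, 84.6 and 81.8 CPM in the knockdown-labelled ones, with no overlap. Icam2 (3.90 ± 0.545 and 2.68 ± 0.820 CPM, -0.53) and the Itga4 ligand Vcam1 (7.10 ± 1.19 and 5.10 ± 1.22 CPM, -0.47) were not called.

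Rises and falls separated by background share. Of the 14 genes under 5%, 13 rose and 0 fell, with a median of 0.26. Among all 4712 tested genes under 5%, 75.6% rose and 0.488% fell, with a median of 0.24. Of the 19 tested genes with a share of 19% or more, 14 fell and 0 rose, with a median of -0.82. Among all 9245 genes of that kind 61.6% fell, with a median of -0.80. The 5 genes between these limits were Vcl, Itga4, Tln2, Itgal and Itga9, of which Itga4 rose. Among all 5291 tested genes of that class 16% rose and 5.75% fell.

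**Figure D3:**
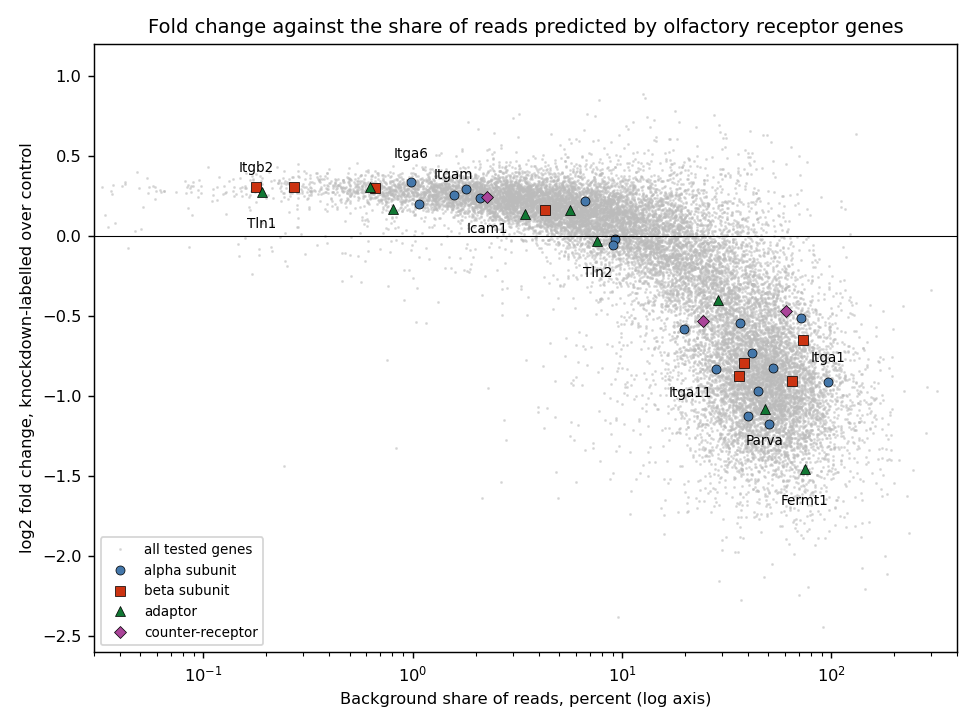
log2 fold change of each tested gene against its background share in percent on a log axis, with all 19263 genes as grey points and the 38 integrin-related genes as symbols by role. The 13 genes that rose with a share under 5% lie at the left above 0, and the 14 that fell have shares of 19.8% or more.

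When the 14 genes under 5% were scaled on genes of that kind alone, none was called (0 of 14, against 2.27% of the 4712 genes risen and 1.85% fallen). The median was 0.02, the smallest edgeR adjusted p was 0.0698 (Itga6, log2 fold change 0.10), and 4 of the 14 had an unadjusted p under 0.05. With the background reads also subtracted, 0 of 14 were called (0.722% of the 4712 genes rose and 1.02% fell), the smallest edgeR adjusted p was 0.2, and 2 had an unadjusted p under 0.05. The genes with higher shares were examined the same way in fits added after the data were seen. After subtraction of the olfactory background 34 genes could be tested, and 0 rose and 8 fell, against 0.949% and 12.7% of the 14749 genes in that fit. The 8 were Itga10 (-1.65), Itga2b (-1.49), Parva (-1.43), Itga7 (-1.18), Itgb4 (-1.07), Itga11 (-1.02), Itgae (-0.75) and Tln2 (-0.23), with edgeR adjusted p from 0.00328 for Parva to 0.0333 for Itgae. The filter of this fit asked for enough reads in 5 libraries, so the control libraries alone could keep a gene in. Itga10 had means of 16.7 reads above background in the controls and 6.98 in the knockdown-labelled libraries. Such a filter can favour falls, and its part in the 8 was not tested. With a background taken from keratin genes, whose density was higher (1.31 ± 0.278 reads per kilobase and 1000000 reads in the controls and 0.591 ± 0.155 in the knockdown-labelled libraries), 22 genes kept enough reads for the test and 0 were called, against 1.46% of all genes risen and 1.13% fallen, with 3 at an unadjusted p under 0.05. Of the 8 genes only Itga11 (-0.92), Itgae (-0.58) and Tln2 (-0.16) could be tested there.

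Shares within a library do not depend on scaling between libraries, and 7 of them were tested (exact permutation test over libraries, two-sided). Fermt3 made up 96.0% ± 0.297 of the kindlin reads per kilobase with the control gapmer and 97.9% ± 0.303 in the knockdown-labelled group (SD, 5 libraries each). The difference was 1.96 percentage points (exact p = 0.00794, Benjamini-Hochberg adjusted over 7 shares 0.0185). Tln1 made up 97.3% ± 0.139 and 97.8% ± 0.0764 of the talin reads per kilobase, and Parvg 97.5% ± 0.713 and 99.0% ± 0.305 of those of Parva and Parvg. Both had the same exact p and adjusted p, and in all 3 shares every knockdown-labelled library lay above every control library. After subtraction of the olfactory background reads from each gene the differences shrank to 0.877 points for Fermt3, 0.351 for Tln1 and 0.793 for Parvg. Each had an adjusted p of 0.0185 in the same exact permutation test. In the fit with the higher keratin background subtracted, Fermt1 and Parva kept too few reads for the test. Log2 fold changes there were 0.26 (SE 0.508) for Fermt2 and 0.016 (SE 0.0327) for Fermt3. They were -0.16 for Tln2 and -0.030 for Tln1. Whether the 3 share differences remain with the keratin background subtracted was not tested.

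The other 4 shares overlapped between the groups. Itgb2 made up 50% ± 0.785 and 50.4% ± 1.10 of the reads per kilobase of the 8 beta subunits (exact permutation test, adjusted p = 0.844), and Itgb1 33.0% and 33.4%. Itgb5 held 27.7% ± 1.88 and 27.8% ± 0.389 among the 5 partners of Itgav (adjusted p = 0.913 in the exact permutation test), where Itgb1 held 67.0% and 67.7%. Itga4 held 6.09% ± 0.228 and 6.12% ± 0.319 among the 12 partners of Itgb1 (adjusted p = 0.913, exact permutation test), and the largest parts there were those of Itga6 (39.4% and 43.0%), Itga5 (22.1% and 23.3%) and Itgav (19.2% and 19.6%). Itgam held 36.3% ± 3.85 and 38.0% ± 1.80 among the 4 partners of Itgb2 (adjusted p = 0.708, exact permutation test), below Itgax with 54.5% and 54.7%. This order turned round when levels were divided by the exon bases that no other gene covers, which gave Itgam 64.2% and 66.1% and Itgax 30.4% and 29.8%.

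**Figure D4:**
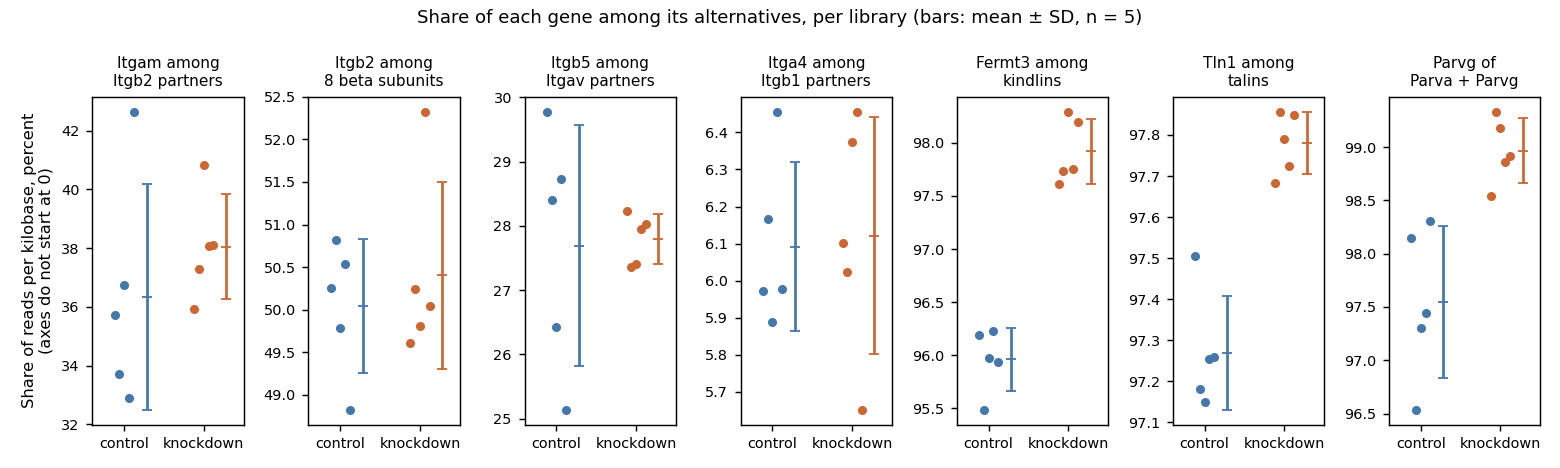
Share of reads per kilobase (percent, axes not starting at 0) of 1 gene among its alternatives in each of the 5 control and 5 knockdown-labelled libraries, with mean ± SD beside the points. For Fermt3, Tln1 and Parvg all knockdown-labelled libraries lie above all control libraries, and for Itgam, Itgb2, Itgb5 and Itga4 the groups overlap.

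Genes around the integrins were counted in 4 lists. Of 42 genes of integrin activation and adhesion signalling 29 rose, 7 fell and 6 were not called, with a median log2 fold change of 0.22. Of these 42 genes 31 had a background share under 5%, a class in which 75.6% of all genes rose. Rap1b, the small GTPase that recruits talin, rose by 0.41 (edgeR adjusted p = 4.54e-07), Lims1, the partner of Ilk, by 0.36, and the Crk adaptor by 0.33. Skap1 (-1.49), Rasgrp2 (-1.01) and Tgfb1i1 (-0.91), a relative of paxillin, fell. Genes that rose in this list had background shares of at most 4.99%, and those that fell had at least 15%.

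Of 39 integrin ligand genes 34 were tested, of which 5 rose and 20 fell, with a median of -0.66. Of the 34, 24 had a background share of 19% or more, a class in which 61.6% of all genes fell. Postn, a matrix protein, rose by 0.63 (29.3 ± 5.16 to 45.5 ± 5.43 CPM), Mfge8, the bridge to apoptotic cells, by 0.27, and Tgfb1, whose latent form Itgav integrins activate, by 0.26. Lamb1 (-1.25), Thbs2 (-1.18) and Fbn1 (-0.95), all matrix proteins, fell. Of 21 genes in a list of membrane proteins around integrins 12 rose and 4 fell (median 0.17, with 16 under a 5% share). Among them were rises of Cd53 (0.37), Cd47 (0.37) and Cd36 (0.36) and falls of Sele (-1.24), Selp (-1.12) and Lrrc32 (-0.60). Of 14 genes of integrin traffic 10 rose and 3 fell (median 0.29, with 10 under a 5% share), led by Rab11a (0.36), Dab2 (0.33) and the clathrin heavy chain Cltc (0.32), with falls of Acap1 (-1.13), Rab25 (-0.75) and Rab11fip1 (-0.45).

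Under a 5% background share stood 31 signalling genes, 7 ligand genes, 16 membrane proteins and 10 traffic genes. Scaled on genes of that kind, 2, 1, 2 and 0 of them were called. Of all 4712 genes in that fit 2.27% rose and 1.85% fell. Rap1b rose by 0.16 (edgeR adjusted p = 0.000915) and Cd36, a scavenger receptor, by 0.12, and Lama3 (-0.27), Cd37 (-0.28) and Skap2 (-0.14) fell. After background subtraction Rap1b (0.14), Lama3 (-0.26) and Cd37 (-0.27) were called again, while 0.722% of the 4712 genes rose and 1.02% fell. Rap1b and Cd36 were named for their small p in the TMM fit of these same libraries. Lama3, Cd37 and Skap2 were picked after their values were seen.

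The markers of each other cell type summed to less than those of microglia. Mrc1, a border macrophage marker, still stood near the microglial marker Csf1r (586 CPM in the controls and 720 CPM in the knockdown-labelled group). Astrocyte markers summed to 138 to 156 CPM in the control libraries and 138 to 169 CPM in the knockdown-labelled ones, and of the 6 markers Gfap (52.5 and 65.4 CPM) and Aqp4 (27.8 and 33.6 CPM) rose and Slc1a3 (24.9 and 19.9 CPM) fell. Aldh1l1 (29.9 and 30.9 CPM), Gja1 (7.82 and 5.81 CPM) and S100b (2.33 and 1.31 CPM) were not called. Oligodendrocyte lineage markers summed to 92.6 to 103 CPM in the control libraries and 95.3 to 102 CPM in the knockdown-labelled ones. Of the 5 tested there 0 rose and 2 fell, and the median background share of these markers was 50.6%. Endothelial markers summed to 30.7 to 51.3 and 24.3 to 30.4 CPM, and fibroblast and mural markers to 30.2 to 40.3 and 14.4 to 25.7 CPM. All 4 tested endothelial markers and all 4 tested fibroblast and mural markers fell, with median background shares of 34.2% and 66.5%. Among all tested genes with a share of 19% or more, 61.6% fell. None of the markers examined was at 0 in all libraries. Border macrophage and monocyte markers summed to 551.5 to 667 and 682 to 798 CPM, nearly all from Mrc1 (596 and 739.5 CPM). The part of these cell types in the falls of the scarce subunits was not tested.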

How the data were processed

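Total RNA of 10 libraries of cultured primary mouse microglia was sequenced with the SMARTer Stranded Total RNA-Seq Pico kit, per the labels' protocols. The authors deposited whole-number read counts per gene, 1 table per library. Per the submitters' processing notes, bcl2fastq was used and the genome was GRCm38 (mm10). For the aligner, the program that counted reads and its strand setting, a name is not given in the sources used. Each table had 55563 rows, of which 92 were spike-ins with 0 to 2 reads, which were left out. Names, exon lengths and positions came from GENCODE M21, which matched 55230 genes.

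All genes were fitted together with edgeR 4.0.16 in R 4.3.3 (filterByExpr by group, TMM, robust quasi-likelihood test, no covariate). This filter asks for enough reads in 5 libraries, so the libraries of 1 group alone can keep a gene in the test. P-values were adjusted over 19263 tested genes by Benjamini-Hochberg, and the threshold was 0.05. CPM values were TMM-scaled, and levels between genes were compared per kilobase of exon. For shares within a library an exact permutation test (two-sided, scipy 1.17.1) was used. Alternatives were other scalings and filters, DESeq2 1.42.0, background subtraction or a background covariate, lane terms, a replicate block and each library left out. Fits over all genes scaled on genes under a 5% background share, keratin subtraction and the exon bases no other gene covers were added after the data were seen. The test was run on simulated counts in which few genes changed, as many up as down, with equal background in both groups. That check does not cover the dependence of the calls on scaling and background. Replicates 1 to 3 of both groups carried lane 7 in their deposited labels and replicates 4 and 5 lane 8. Libraries of 1 group differed by more than sampling noise (chi-square over degrees of freedom, 1.7 to 3.97).

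The genes and lists were chosen with earlier results of these data known. All 39 genes are named, and of each other list up to 3 genes that rose and 3 that fell with the smallest p, with 3222401L13Rik as the label check. Promoters were matched by symbol in a RefSeq table (GRCm38.p6). The totals per library limit the precision of genes with a few CPM.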

Additional observations from a re-analysis of the deposited data

Results flagged for a closer look

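Of 90 groups of 5 libraries examined, 4 had a library at a distance from the others beyond Dixon's limit of 0.71, and chance flags about 1 group in 20. In the knockdown-labelled group, on the log2 scale, replicate 3 was far below the others for Itga3 (1.69 CPM), replicate 4 far above them for Itga8 (6.55 CPM) and replicate 2 far above them for Itgb3 (68.6 CPM). In the same group replicate 4 was far above the others for the share of Itgb2 among the beta subunits (52.3%). No cause of these values was tested.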

How the results depend on the processing

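The count of genes that rose among the 38 was 14 and of those that fell 14, and over all genes 4418 and 6033. Leaving out 1 library gave 13 to 16 and 12 to 16, and over all genes 4032 to 5015 and 4928 to 6967. DESeq2 gave 16 and 13, its size factors in edgeR 16 and 14, no filter 16 and 12, and lane as a covariate 13 and 14. Upper-quartile scaling gave 7 that rose (1685 over all genes), library totals 6 and 22 (759 genes rose), and a filter of 5 CPM in 5 libraries 8 and 13 (2057 and 2239 genes). Scaling on genes under a 5% background share gave 0 and 0 of 14 (107 and 87 of 4712 genes), and with subtraction 0 and 0 (34 and 48 genes). With all genes tested it gave 1 and 22 (319 genes rose), after olfactory subtraction 0 and 8 (140 and 1878 genes), and after keratin subtraction 0 and 0 (167 and 130 genes). Background density as a covariate gave 0 and 0 (4 and 16 genes), with 6 of the 38 at an unadjusted p under 0.05. Lane 7 alone gave 13 and 14. Lane 8 alone, with 2 libraries a group, gave 0 and 0 (67 and 153 genes), with 9 of the 38 at an unadjusted p under 0.05. The replicate block gave 13 and 14 (4405 and 5949 genes). It ended 1 call, Itgb3 (adjusted p = 0.058). Correlations of same-numbered libraries ran from -0.224 to 0.194, and 2 of 10 libraries correlated best with their own number, so the numbers were not taken as pairs.

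Signs turned for single genes in these fits. With DESeq2's size factors in edgeR the log2 fold change was 0.036 for Tln2, 0.050 for Itga9 and 0.010 for Itgal. With DESeq2 itself it was 0.036 for Tln2, 0.050 for Itga9 and 0.011 for Itgal. Without a filter it was 0.097 for Tln2, 0.11 for Itga9 and 0.072 for Itgal. In lane 7 alone it was 0.026 for Tln2, 0.023 for Itga9 and 0.065 for Itgal. Upper-quartile scaling gave -0.011 for Pxn. Library totals gave -0.033 for Parvg, -0.070 for Pxn, -0.046 for Vcl, -0.0078 for Itgax and -0.042 for Itgb3. Scaling on genes under a 5% background share gave -0.073 for Parvg, -0.11 for Pxn, -0.0060 for Itgav, -0.047 for Itgax and -0.081 for Itgb3. The same scaling over all genes gave -0.073 for Parvg, -0.11 for Pxn, -0.085 for Vcl, -0.024 for Itga4, -0.0057 for Itgav, -0.047 for Itgax and -0.081 for Itgb3. With subtraction among genes under 5% the values were -0.094 for Parvg, -0.100 for Pxn, -0.0100 for Itgav, -0.066 for Itgax, -0.059 for Itgb3, -0.00058 for Icam1 and -0.0022 for Tgfb1. With olfactory subtraction over all genes they were -0.094 for Parvg, -0.10 for Pxn, -0.046 for Vcl, -0.0098 for Itgav, -0.066 for Itgax, -0.059 for Itgb3, 0.0023 for Itgb8, -0.00059 for Icam1, 0.053 for Vcam1, -0.0023 for Tgfb1 and 0.34 for 3222401L13Rik. Keratin subtraction gave 0.26 for Fermt2, -0.12 for Parvg, -0.084 for Pxn, -0.030 for Tln1, -0.0089 for Itgam, -0.010 for Itgav, -0.084 for Itgax, -0.029 for Itgb3, -0.023 for Tgfb1 and -0.00060 for Mfge8. The background covariate gave -0.071 for Parvg, -0.041 for Vcl, 0.024 for Itga11, 0.28 for Itga8, 0.12 for Itga9, 0.18 for Itgae, -0.18 for Itgam, -0.011 for Itgb1, 0.059 for Rab11fip1 and 0.35 for Lrrc32. Leaving out 1 library gave -0.050 to 0.012 for Tln2, -0.043 to 0.049 for Itga9 and -0.098 to 0.027 for Itgal. The cause was not tested.

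Among the shares, Fermt3, Tln1 and Parvg differed by 2.00, 0.499 and 1.69 percentage points in lane 7 alone and by 1.89, 0.531 and 1.01 in lane 8 alone, where the exact permutation test cannot go below 0.1 and 0.333. In lane 7 alone the difference of Itgb2 was -0.404 and that of Itgb5 -0.536, and in lane 8 alone that of Itga4 was -0.163. Without division by length that of Itga4 was -0.0126. Leaving out 1 library gave 1.84 to 2.03 for Fermt3, 0.481 to 0.570 for Tln1, 1.17 to 1.61 for Parvg, 0.843 to 3.29 for Itgam, -0.122 to 0.559 for Itgb2, -0.538 to 0.623 for Itgb5 and -0.0539 to 0.148 for Itga4.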
